A study of Rattus norvegicus with 45 samples.

Results

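The genes described here mark the cells of brain blood vessels: endothelial cells, pericytes and vascular smooth muscle cells. A list of 35 such genes was matched to the array by the gene symbol of each probe set, and where a gene had several probe sets the one with the highest mean log2 intensity over all 45 arrays stood for it. Of the 35 genes, 33 had a probe set of their own, while Cdh5 and Itm2a had none. A further pair, Anpep and Notch3, lay below the level needed for testing (mean log2 intensity 5.36 and 5.64, against a minimum of 5.88), which left 31 tested genes, of 10248 genes and 18609 probe sets tested on the array as a whole. The probe sets were chosen by level and not by any difference between groups.

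The samples came from 15 male Sprague-Dawley rats, 9 to 11 weeks old, that carried subcutaneous osmotic minipumps for 21 days. In each treatment group, 5 rats received risperidone at 5 mg/kg/d, haloperidol at 0.25 mg/kg/d, or vehicle, which was dilute acetic acid in water. Frontal cortex, hippocampus and striatum of every rat were each hybridized to a rat expression array, so that a treatment is represented by 5 arrays in a region and a rat by 3 arrays. The design asks what chronic exposure to either antipsychotic does to gene expression in these regions. The animals were healthy rats given 1 dose of each drug, the doses of the drugs differ, and the rat numbers run in separate ranges by treatment (52 to 60 for risperidone, 41 to 50 for haloperidol, 32 to 36 for vehicle), so a difference that went with those numbers and a treatment effect cannot be told apart.

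Brain endothelial cells line the vessels and are sealed to each other by tight junctions, and they carry transporters that bring glucose, lactate and amino acids into the brain and pump many drugs back into the blood. Pericytes sit on capillaries within the basement membrane, and smooth muscle cells wrap the arterioles and set their diameter. Transcription factors of the SOX family, among them Sox17 and Sox18, set endothelial identity and vessel growth together with the receptors for vascular endothelial growth factor and the angiopoietins.

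Whole regions were assayed, so each level is an average over all their cells. The regions carried their own markers: mean log2 intensity of the dopamine receptor gene Drd2 was 10.71 in striatum, 5.10 in hippocampus and 5.47 in frontal cortex, and that of Neurod6, a gene of cortical and hippocampal excitatory neurons, was 6.0 in striatum, 11.65 in hippocampus and 10.10 in frontal cortex. Of the 45 arrays, 8 were set apart, after the data were seen, because markers of a neighboring tissue were high relative to other arrays of the region. These were choroid plexus genes in the hippocampus of risperidone rat 3 and in the striatum of risperidone rat 5, haloperidol rat 1 and vehicle rat 1 (1.2 to 1.91 log2 units above the mean of the region), genes of excitatory neurons in the striatum of risperidone rat 3 (1.39), and olfactory bulb genes in the frontal cortex of risperidone rats 2 and 5 and haloperidol rat 5 (0.74 to 1.97). For the calls and counts of vascular genes after risperidone, the values without these arrays are given as well. Those values come from a single fit that leaves out all 8 arrays, whichever region is described.

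In frontal cortex, risperidone was followed by lower levels of Sox17 and Sox18, which fell by 0.71 and 0.43 on the log2 scale (1.64-fold and 1.34-fold), and most of the listed genes had values on the same side of 0. The change was negative for 27 of the 31 tested genes, and the median change was -0.19, against 0.01 over all probe sets, of which 46.0% were negative. The listed genes vary together between arrays (median r 0.33 over pairs), so such counts, here and below, are not counts of independent observations. A call required an adjusted p under 0.05 in limma and at least a 1.2-fold difference. By that rule 2 of the 31 genes fell and none rose, where 3.40% of all probe sets were called in this comparison and 1.89% were called lower. At an unadjusted p under 0.05, 13 genes were lower and 0 higher, where 10.1% of all probe sets were lower and 12.6% higher. In these tissue samples fewer cells of a type and less RNA per cell cannot be told apart.

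**Figure D1:**
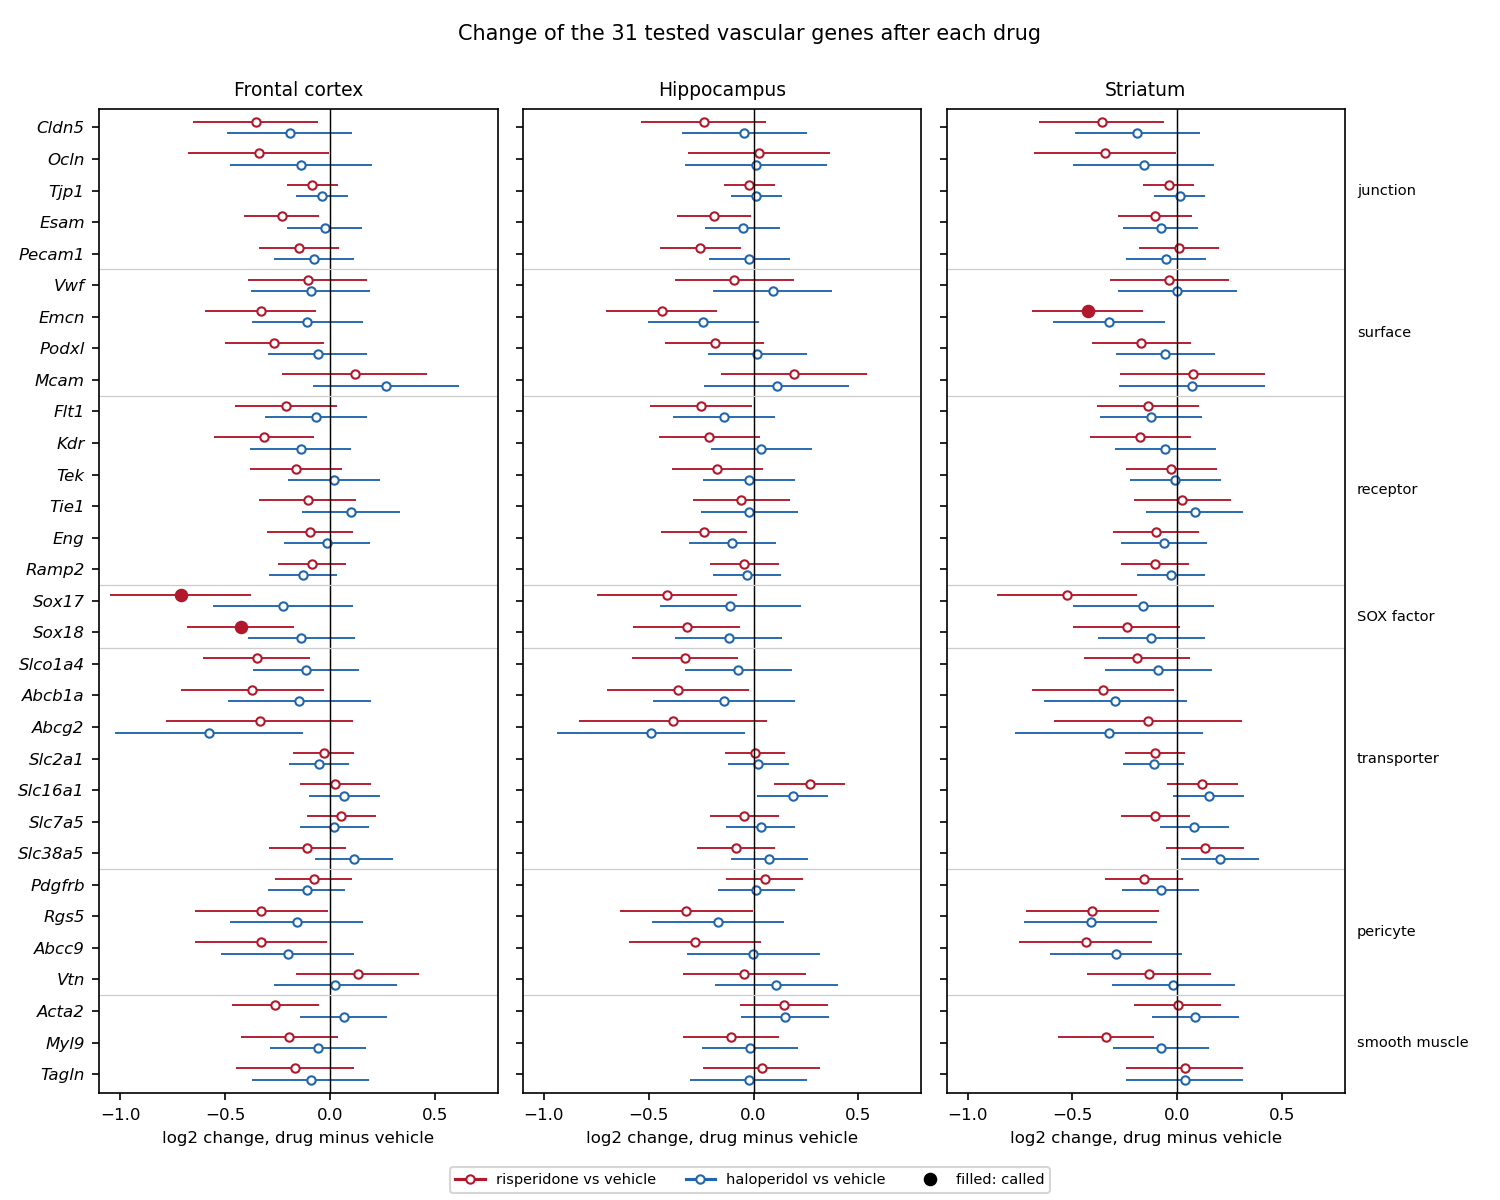
Log2 change of each of the 31 tested vascular genes after risperidone (red) and haloperidol (blue) relative to vehicle in each region, with 95% confidence intervals (5 rats per group), grouped by role; filled points passed the call. Most risperidone points lie left of 0, and those filled are Sox17 and Sox18 in frontal cortex and Emcn in striatum.

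Sox17 (probe set 1392990_at), which drives arterial identity and barrier formation in endothelium, measured 6.35, 5.75, 6.07, 5.94 and 6.29 log2 units in the frontal cortex of the 5 risperidone rats, against 6.70, 7.0, 6.60, 6.61 and 7.05 in the vehicle rats. Every risperidone rat lay below every vehicle rat. The groups averaged 6.08 ± 0.25 and 6.79 ± 0.22 (SD, n = 5 each), a change of -0.71 (SE 0.17, 95% interval -1.05 to -0.38, limma adjusted p = 0.0104). The call held when any 1 of the 10 rats was left out (adjusted p 0.00564 to 0.0413). It also held without the arrays high in markers of neighboring tissue (-0.66, adjusted p = 0.0433). The other 2 probe sets named for Sox17, looked at after the result was seen, lay below the level for testing at 3.80 and 4.40 and differed by 0.11 and 0.03.

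Sox18 (probe set 1381971_at), a close relative that acts in the same vessels and in lymphatic endothelium, measured 7.25, 6.74, 6.74, 7.12 and 7.27 in risperidone frontal cortex, against 7.38, 7.35, 7.43, 7.32 and 7.77 in vehicle frontal cortex. All 5 risperidone rats again lay below all 5 vehicle rats, a separation seen for 2 of the tested genes and for 2.77% of all probe sets. In haloperidol frontal cortex Sox18 measured 7.72 in rat 3 and 7.161 to 7.318 in the other rats, just under the lowest vehicle rat (7.324). The change after risperidone was -0.43 (SE 0.13, limma adjusted p = 0.0382). The call held without risperidone rat 1, 4 or 5. It was lost without risperidone rat 2 or rat 3 or without any 1 of the vehicle rats (adjusted p up to 0.137). It was also lost without the arrays high in markers of neighboring tissue (-0.41, adjusted p = 0.0994).

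The other junction, surface and transporter genes in frontal cortex did not pass the call. Slco1a4, an organic anion transporter of the blood-brain barrier, measured 9.50, 8.93, 9.25, 9.58 and 9.48 in risperidone rats, against 9.59, 9.81, 9.49, 9.66 and 9.95 in vehicle rats, a difference of -0.35 (SE 0.13, limma adjusted p = 0.0836). The ranges overlap through risperidone rats 1 and 4. Of the 5 tested junction genes all had negative values, with a median of -0.23, with the largest differences for Cldn5, the main claudin of the brain endothelial tight junction (-0.35, adjusted p = 0.14), and Ocln, its partner occludin (-0.34, adjusted p = 0.216). All 6 receptor genes were negative too, with a median of -0.13, among them Kdr, the main receptor for vascular endothelial growth factor (-0.31, adjusted p = 0.102). Without risperidone rat 2 the differences of Cldn5 and Slco1a4 were -0.23 (adjusted p = 0.43) and -0.25 (adjusted p = 0.302).

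None of the pericyte and smooth muscle genes was called. Of the 7 tested mural genes 6 were negative in frontal cortex, and their median was -0.19. Rgs5, a regulator of G-protein signaling that marks pericytes, differed by -0.33 (adjusted p = 0.203), Abcc9, a subunit of the pericyte potassium channel, by -0.33 (adjusted p = 0.201), and Acta2, smooth muscle actin, by -0.26 (adjusted p = 0.118). Without risperidone rat 2 Abcc9 differed by -0.21 (adjusted p = 0.508). Vtn, the pericyte adhesion protein vitronectin, was the exception at 0.13.

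The number of genes that were lower at an unadjusted p under 0.05 depended on single rats. It was 13 with all rats, 4 without risperidone rat 2, 8 without risperidone rat 3 and 7 without vehicle rat 2 or vehicle rat 5. The share of all probe sets that were lower was 10.1% with all rats. Without those rats, in the same order, the share was 8.72%, 9.94%, 8.72% and 8.79%. Risperidone rat 2, with a mean of the 24 endothelial genes 0.32 below that of the region, is also the array with the most olfactory bulb signal. Of 4 tested olfactory bulb markers 3 rose in risperidone frontal cortex, Cdhr1 (2.40, adjusted p = 0.013), Calb2 (1.10, adjusted p = 0.011) and Doc2g (0.79, adjusted p = 0.0287), and the summed intensity of the 8 listed markers with a probe set was 2422 to 8728 in risperidone rats, against 2150.3 to 2937 in vehicle rats. Without the arrays high in markers of neighboring tissue 2 genes were called, Sox17 and Acta2 (-0.36, adjusted p = 0.0452). In that setting 8 were lower at an unadjusted p under 0.05. Calls numbered 3 without risperidone rat 4, which added Slco1a4, or rat 5, which added Kdr.

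In hippocampus no vascular gene passed the call after risperidone, where 0.113% of all probe sets did. The median change was -0.17, against 0.01 over all probe sets, and 24 of the 31 genes were negative, as were 44.7% of all probe sets. The median was -0.10 without vehicle rat 5, and lay between -0.21 and -0.13 when any other rat was left out. Without adjustment, 10 were lower and 1 higher at p under 0.05, where 7.84% of all probe sets were lower and 8.75% higher. The leading genes were Emcn and Slc16a1, which lay on opposite sides.

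Emcn (probe set 1372587_at) encodes endomucin, a sialoglycoprotein on the surface of capillary and venous endothelium. It measured 7.29, 6.91, 7.13, 6.74 and 7.11 in risperidone hippocampus, against 7.55, 7.29, 7.37, 7.62 and 7.54 in vehicle hippocampus. Every risperidone value lay below every vehicle value, with rat 1 of the risperidone group just under the lowest vehicle rat, but the difference of -0.44 (SE 0.13) did not pass after adjustment (limma adjusted p = 0.106), where 1.31% of all probe sets showed this separation. It passed without risperidone rat 1 (adjusted p = 0.045).

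Slc16a1, the monocarboxylate transporter that carries lactate and ketone bodies, was the only tested member with all risperidone rats above all vehicle rats in hippocampus, a pattern that 2.85% of all probe sets showed. It measured 9.16, 9.27, 9.08, 9.20 and 9.13 in risperidone rats, against 8.95, 8.73, 8.93, 8.91 and 8.97 in vehicle rats, a difference of 0.27 (SE 0.08, limma adjusted p = 0.118). Oligodendrocytes express this transporter as well. Their 7 tested markers were all positive in risperidone hippocampus, with a median of 0.34, and summed to 41840 to 46349 in risperidone rats, against 34050.4 to 44348 in vehicle rats. Their part in the Slc16a1 difference was not tested.

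Pecam1, an adhesion molecule of endothelial junctions, measured 6.55, 6.11, 6.35, 5.96 and 6.54 in risperidone hippocampus, against 6.60, 6.42, 6.54, 6.65 and 6.58 in vehicle hippocampus (-0.25, SE 0.10, limma adjusted p = 0.178). Risperidone rats 1 and 5 lay within the vehicle range. Sox17 and Sox18 differed by -0.41 (adjusted p = 0.206) and -0.32 (adjusted p = 0.199), and hippocampal Sox17 held the lowest value of the gene in any array, 5.05 in risperidone rat 4. Without that rat hippocampal Sox17 differed by -0.20 (adjusted p = 0.596) and Sox18 by -0.25 (adjusted p = 0.441). The count of 10 lower genes was 1 without risperidone rat 4, 6 without risperidone rat 2, 5 without vehicle rat 1 and 4 without vehicle rat 5. Of all probe sets 7.84% were lower with all rats. Without those rats, in the same order, 5.32%, 5.74%, 7.81% and 5.69% were. Without the arrays high in markers of neighboring tissue 9 members were lower and none was called in limma.

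In striatum Emcn fell by 0.43 on the log2 scale (1.34-fold) after risperidone and was the only member called of 31, where 3.65% of all probe sets were called and 2.76% were called lower. The change was negative for 24 genes and for 57.4% of all probe sets, with a median of -0.13, against -0.02 over all probe sets (-0.08 for the members without risperidone rat 3). At an unadjusted p under 0.05, 8 genes were lower and 0 higher, where 14.4% of all probe sets were lower and 8.02% higher. Emcn measured 7.51, 7.11, 6.65, 7.47 and 7.50 in risperidone striatum, against 7.82, 7.52, 7.54, 7.74 and 7.74 in vehicle striatum.

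Every risperidone rat lay below every vehicle rat for striatal Emcn, as for 2.59% of all probe sets, with 3 risperidone rats just under the lowest vehicle rat and risperidone rat 3 far below (SE 0.13, limma adjusted p = 0.0482). The call was lost without risperidone rat 2 or rat 3 or without any 1 of the vehicle rats, and the change was -0.28 (adjusted p = 0.273) without risperidone rat 3. That array had the lowest endothelial, pericyte and smooth muscle means of striatum (0.32, 0.42 and 0.45 below the mean of the region) and stood out for genes of excitatory neurons, which summed to 6654 to 12379 in risperidone striatum, against 6044 to 8387 in vehicle striatum. Without the arrays high in markers of neighboring tissue no vascular gene passed in limma in striatum, and 2 were lower at an unadjusted p under 0.05. Striatal Emcn then differed by -0.28 (adjusted p = 0.334).

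**Figure D2:**
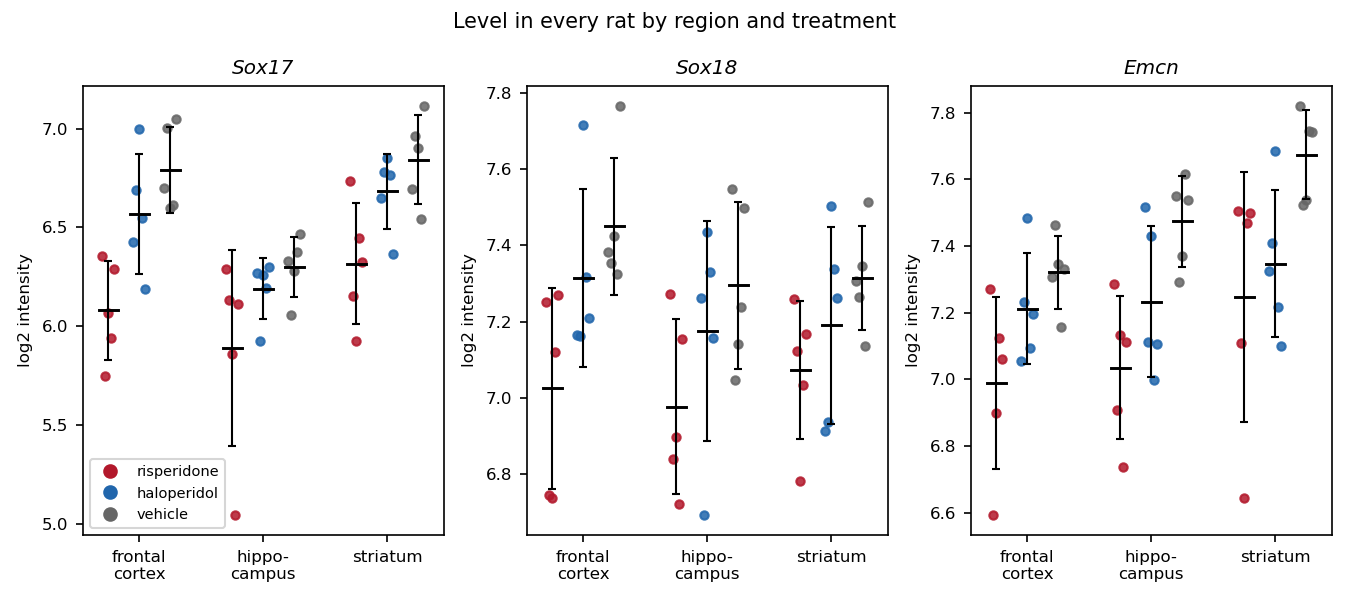
Log2 intensity of Sox17, Sox18 and Emcn in every rat by region, for risperidone, haloperidol and vehicle (each point 1 array, bars mean ± SD, n = 5 rats). All risperidone points lie below all vehicle points for Sox17 and Sox18 in frontal cortex and for Emcn in hippocampus and striatum.

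Sox17 was near the threshold in striatum. It measured 6.73, 6.15, 5.93, 6.45 and 6.32 in risperidone rats, against 6.70, 6.96, 6.90, 6.54 and 7.11 in vehicle rats, a difference of -0.53 (SE 0.17, limma adjusted p = 0.0541). Risperidone rat 1 lay within the vehicle range and the other 4 below it. Myl9, the regulatory light chain of smooth muscle myosin, measured 7.53, 7.08, 6.56, 7.18 and 7.36 in risperidone rats, against 7.63, 7.33, 7.50, 7.54 and 7.41 in vehicle rats (-0.34, SE 0.11, adjusted p = 0.0684). Risperidone rat 3 lies far below the rest of its group, and without it Myl9 differed by -0.19 (adjusted p = 0.375) and Sox17 by -0.43 (adjusted p = 0.24).

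Of the 4 tested pericyte genes all were negative in striatum, with a median of -0.28, led by Abcc9 (-0.44, adjusted p = 0.0888) and Rgs5 (-0.41, adjusted p = 0.119). Without risperidone rat 3 these were -0.29 (adjusted p = 0.403) and -0.21 (adjusted p = 0.529). Leaving out single rats gave 0 to 4 called genes in striatum, and without risperidone rat 1 these were Emcn, Sox17, Abcc9 and Myl9, with 3 calls without risperidone rat 4 and 2 without risperidone rat 5. The count of 8 lower genes was 2 without risperidone rat 3 and 5 without vehicle rat 5. Of all probe sets 14.4% were lower with all rats, 9.02% without risperidone rat 3 and 12.6% without vehicle rat 5.

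Markers of blood had median changes after risperidone of -0.24 (frontal cortex), -0.39 (hippocampus) and -0.09 (striatum) over the 3 tested genes of 8 listed, none of them called in limma. At an unadjusted p under 0.05, 1, 2 and 0 of these genes were lower, where 10.1%, 7.84% and 14.4% of all probe sets were. The summed intensity of the blood markers was 3670.0 to 5137 in risperidone and 4431 to 5662 in vehicle frontal cortex, 3606 to 6113 in risperidone and 5194 to 6564 in vehicle hippocampus, and 3126 to 4851 in risperidone and 3949 to 5336 in vehicle striatum. The summed intensity of the 24 endothelial genes was 5743 to 7131 in risperidone and 7014 to 8205 in vehicle frontal cortex. For hippocampus it was 6632 to 8041 in risperidone and 7498 to 8584 in vehicle rats. For striatum it was 6070 to 7961 in risperidone and 7369 to 8296 in vehicle rats. By region in the same order, median changes after risperidone were 0.13, 0.36 and 0.11 for meningeal fibroblast markers, 0.04, 0.75 and -0.14 for choroid plexus markers, 0.01, 0.09 and 0.09 for astrocyte markers, 0.18, 0.08 and 0.07 for microglia markers, 0.19, 0.34 and 0.24 for oligodendrocyte markers, -0.06, -0.16 and 0.38 for markers of excitatory neurons, and 0.28, 0.19 and -0.28 for markers of striatal neurons. Of the 7 oligodendrocyte markers 1, 4 and 2 were higher at an unadjusted p under 0.05, where 12.6%, 8.75% and 8.02% of all probe sets were. None of the 7 was called. The marker medians above include the arrays set apart. In hippocampus the mean of the choroid plexus markers was 8.71 in risperidone rat 3, where the median over risperidone rats was 6.64, against 6.61 in vehicle rats. In striatum the mean of the excitatory neuron markers was 9.56 in risperidone rat 3, where the median over risperidone rats was 8.07, against 7.77 in vehicle rats. The astrocyte gene Gfap rose by 0.64 (limma adjusted p = 0.00942) and Tac1 of striatal neurons fell by 0.76 (adjusted p = 0.0388), both in striatum. Tac1 was lowest in risperidone rat 3 (10.34), an array set apart, where the other risperidone rats measured 11.19 to 11.57. In haloperidol striatum Tac1 was 11.29 to 11.65, below every vehicle rat (11.67 to 12.13). Gfap averaged 11.28 there, against 10.75 in vehicle rats. Neither was called after haloperidol. The part of these cell types and of blood in these results was not tested.

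Whether the risperidone changes differed between regions was tested as the difference itself, and no member passed. None of the 31 genes was called for hippocampus minus frontal cortex, striatum minus frontal cortex or striatum minus hippocampus, where 1.32%, 2.94% and 1.66% of all probe sets were called. The Sox17 change differed by 0.30 between hippocampus and frontal cortex (95% interval -0.12 to 0.72, limma adjusted p = 0.519) and by 0.18 between striatum and frontal cortex (-0.23 to 0.60, adjusted p = 0.64), so these intervals hold both no difference and one as large as most single changes. For hippocampus minus frontal cortex the Sox17 difference was 0.16 (adjusted p = 0.806) without risperidone rat 2 and 0.47 (adjusted p = 0.159) without risperidone rat 4. The smallest adjusted p was that of Acta2 for hippocampus minus frontal cortex (0.41, adjusted p = 0.0927). Without the arrays high in markers of neighboring tissue Acta2 was called there (0.50, adjusted p = 0.0343).

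After haloperidol the median differences of these genes were nearer 0, and none of the 31 passed the call in limma in any region. Over all probe sets 0.177% were called in frontal cortex, 0 in hippocampus and 0.339% in striatum. The median changes were -0.08, -0.02 and -0.06, against -0.04, 0.00 and -0.02 over all probe sets. At an unadjusted p under 0.05, 1 gene was lower and 0 higher in frontal cortex (8.85% and 4.73% of all probe sets), 1 lower and 1 higher in hippocampus (2.03% and 1.73%), and 2 lower and 1 higher in striatum (10.2% and 5.24%).

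Abcg2, the breast cancer resistance protein that pumps drugs out of brain endothelium, had the smallest p in 2 regions. It measured 6.12, 7.01, 7.50, 7.33 and 7.44 in haloperidol frontal cortex, against 7.98, 7.47, 7.48, 7.53 and 7.82 in vehicle frontal cortex (-0.58, SE 0.22, limma adjusted p = 0.237). In hippocampus it measured 5.93, 6.78, 7.26, 6.99 and 7.34 in haloperidol rats, against 7.81, 7.02, 7.18, 7.07 and 7.67 in vehicle rats (-0.49, SE 0.22, adjusted p = 1). The groups overlap in both regions, and haloperidol rat 1 stands alone at the bottom: without it the differences were -0.34 and -0.26.

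In striatum Rgs5 measured 8.30, 8.58, 8.79, 8.15 and 8.31 in haloperidol rats, against 8.96, 8.81, 8.70, 8.79 and 8.94 in vehicle rats (-0.41, SE 0.16, limma adjusted p = 0.206). Only haloperidol rat 3 reached the vehicle range. Emcn measured 7.32, 7.41, 7.68, 7.22 and 7.10 in haloperidol striatum, against 7.82, 7.52, 7.54, 7.74 and 7.74 in vehicle striatum (-0.33, SE 0.13, adjusted p = 0.233), and again only haloperidol rat 3 reached the vehicle range. Slc38a5, a glutamine transporter, measured 5.92, 6.16, 6.07, 5.98 and 5.90 in haloperidol striatum, against 5.67, 5.93, 5.72, 5.93 and 5.77 in vehicle striatum (0.20, SE 0.09, adjusted p = 0.277), with overlap through haloperidol rats 1 and 5.

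In haloperidol frontal cortex Ramp2, which pairs with the calcitonin receptor-like receptor to bind adrenomedullin, measured 7.72, 7.71, 7.95, 7.74 and 7.64, against 7.81, 8.05, 7.80, 7.79 and 7.98 in vehicle frontal cortex (-0.13, SE 0.08, limma adjusted p = 0.481). Haloperidol rat 3 lay within the vehicle range and the other 4 below it. Mcam, the adhesion molecule CD146, measured 7.69, 7.72, 8.48, 8.48 and 8.23 in haloperidol frontal cortex, against 7.95, 8.09, 7.91, 7.94 and 7.36 in vehicle frontal cortex (0.27, SE 0.17, adjusted p = 0.492). Vehicle rat 5 was low, and without it Mcam differed by 0.14 (adjusted p = 0.761).

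In haloperidol hippocampus Slc16a1 measured 8.95, 9.18, 9.17, 8.80 and 9.33, against 8.95, 8.73, 8.93, 8.91 and 8.97 in vehicle hippocampus (0.19, SE 0.08, limma adjusted p = 1). Haloperidol rats 1 and 4 lay within the vehicle range. Emcn measured 7.52, 7.11, 7.43, 7.0 and 7.11 in haloperidol hippocampus, against 7.55, 7.29, 7.37, 7.62 and 7.54 in vehicle hippocampus (-0.24, SE 0.13, adjusted p = 1), with overlap through haloperidol rats 1 and 3.

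Notch3, the mural cell receptor that keeps arterial smooth muscle mature, was below the level for testing and is given as values. It measured 5.66, 5.77, 5.95, 5.65 and 5.93 in haloperidol frontal cortex, against 5.28, 5.07, 5.52, 5.49 and 5.58 in vehicle frontal cortex, and 5.73, 5.70, 5.95, 6.08 and 5.79 in haloperidol striatum, against 5.34, 5.60, 5.21, 5.49 and 5.38 in vehicle striatum. All haloperidol rats lay above all vehicle rats in both regions, as did 1.23% and 0.779% of the tested probe sets, which are brighter and leave this gene out. The median of Notch3 over all 15 striatum arrays, 5.70, was above every vehicle rat, so some risperidone rats also lay above all vehicle rats there. This gene was singled out after its values were seen.

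Set directly against haloperidol, at doses that differ between the drugs, risperidone gave no called member in any region, where 0.768%, 0 and 0.0161% of all probe sets were called in frontal cortex, hippocampus and striatum. At an unadjusted p under 0.05, 5, 3 and 3 genes were lower and none higher, where 4.44%, 2.01% and 2.56% of all probe sets were lower and 15.7%, 3.90% and 1.91% higher. These counts depended on single rats: the count of lower genes ran between 2 (without haloperidol rat 3) and 9 (without haloperidol rat 1) in frontal cortex, between 0 (without risperidone rat 4) and 9 (without haloperidol rat 2) in hippocampus, and between 0 (without risperidone rat 2 or rat 3) and 3 in striatum. Without the arrays high in markers of neighboring tissue they were 3, 2 and 2. Acta2 and Sox17 in frontal cortex came nearest. Acta2 measured 7.02, 7.27, 6.94, 7.20 and 7.24 in risperidone rats, against 7.33, 7.50, 7.60, 7.59 and 7.29 in haloperidol rats, so that all risperidone rats lay below all haloperidol rats (-0.33, SE 0.10, 95% interval -0.53 to -0.12, limma adjusted p = 0.075), as did 0.709% of all probe sets. Without haloperidol rat 1 Acta2 passed the call (adjusted p = 0.0475), and without haloperidol rat 3 its adjusted p was 0.223.

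Sox17 in frontal cortex measured 6.42, 6.69, 7.0, 6.55 and 6.19 in haloperidol rats, and the risperidone values given above differed from these by -0.49 (SE 0.17, 95% interval -0.82 to -0.15, adjusted p = 0.0937). For striatal Emcn the interval of the difference between the drugs, -0.37 to 0.16, holds 0 and also a difference almost as large as the fall after risperidone. For haloperidol too the difference of its effect between regions gave 0 called members in limma for all 3 pairs of regions, where 0, 0.0269% and 0 of all probe sets were called (hippocampus minus frontal cortex, striatum minus frontal cortex, striatum minus hippocampus).

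Other genes of the same vessels were read from lists that hold no member. In frontal cortex after risperidone, 1 of 10 tested vascular ligands and receptors fell, 2 of 17 Notch pathway and vascular transcription factor genes, 1 of 22 further endothelial genes, 0 of 11 basement membrane genes and 0 of 12 further mural genes, and none rose. Of all probe sets 1.89% were called lower there and 1.51% higher. In striatum 2 of the 17 transcription factor genes fell and no gene of the other lists was called, where 2.76% of all probe sets were called lower. In hippocampus none was called in limma, where 0.113% of all probe sets were. At an unadjusted p under 0.05, 3, 2, 3, 2 and 0 genes were lower in hippocampus, in the order given, where 7.84% of all probe sets were. Among these lists an unadjusted p under 0.05 with a negative sign was held in frontal cortex by 3, 4, 6, 1 and 2 genes, where 10.1% of all probe sets held it. The median changes of the lists there were 0.07, -0.03, -0.04, -0.04 and -0.07. Nrp2, a semaphorin and growth factor co-receptor, was the only gene of these lists called for a difference between regions in the risperidone effect (0.70 for striatum minus hippocampus, adjusted p = 0.0148). That call was lost without risperidone rat 3 (0.48, adjusted p = 0.055) or vehicle rat 3, and without the arrays high in markers of neighboring tissue (0.43, adjusted p = 0.0864).

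Klf4, a transcription factor that responds to blood flow in endothelium and also acts in other cells, fell in frontal cortex and in striatum. It measured 6.45, 5.83, 5.83, 6.18 and 5.92 in risperidone frontal cortex, against 6.72, 6.53, 6.78, 6.57 and 7.02 in vehicle frontal cortex (-0.68, limma adjusted p = 0.00353), with no overlap. The call held when any 1 of the 10 rats was left out and without the arrays high in markers of neighboring tissue (-0.59, adjusted p = 0.0364). In haloperidol frontal cortex Klf4 was 5.99 to 6.49, likewise below every vehicle rat, and was not called. Haloperidol lay wholly below vehicle there for 2.73% of all probe sets. In striatum Klf4 measured 6.11, 5.79, 5.97, 5.69 and 5.63 in risperidone rats, against 6.19, 6.22, 6.66, 6.03 and 6.63 in vehicle rats (-0.51, adjusted p = 0.0251), with overlap through risperidone rat 1. That call was lost without risperidone rat 5 or vehicle rat 3 or 5 (adjusted p up to 0.0962). It was also lost without the arrays high in markers of neighboring tissue (-0.54, adjusted p = 0.105). In hippocampus Klf4 was not called, though it averaged 5.90 in risperidone and 6.42 in vehicle rats. The groups overlapped there through risperidone rat 1 (6.39). Ets1, a transcription factor of the ETS family active in endothelium and lymphocytes, fell by 0.38 in frontal cortex (adjusted p = 0.0421) and by 0.38 in striatum (adjusted p = 0.0488). The frontal cortex call was lost when any 1 of 6 rats was left out, risperidone rats 2 and 3 and vehicle rats 1, 2, 4 and 5 (-0.32, adjusted p = 0.145, without risperidone rat 2), and the striatum call was lost without any 1 rat other than risperidone rats 4 and 5 (-0.30, adjusted p = 0.234, without risperidone rat 3). Neither held without the arrays high in markers of neighboring tissue (-0.35, adjusted p = 0.109, in frontal cortex and -0.29, adjusted p = 0.306, in striatum).

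Nrp1, the co-receptor for vascular endothelial growth factor and semaphorins that neurons express as well, measured 7.56, 7.59, 7.06, 7.35 and 7.32 in risperidone frontal cortex, against 7.81, 7.97, 7.86, 7.92 and 7.73 in vehicle frontal cortex. It fell by 0.48 with no overlap (limma adjusted p = 0.0101). The call held when any 1 rat was left out (adjusted p up to 0.034). It also held without the arrays high in markers of neighboring tissue (-0.56, adjusted p = 0.00574). In haloperidol frontal cortex Nrp1 was 7.52 to 7.70, likewise below every vehicle rat, and was not called. Haloperidol lay wholly below vehicle there for 2.73% of all probe sets. Slco1c1, the thyroid hormone transporter of the barrier, measured 9.59, 8.89, 9.43, 9.54 and 9.49 in risperidone frontal cortex, against 9.79, 9.98, 9.63, 9.71 and 9.92 in vehicle frontal cortex. It fell by 0.42 (adjusted p = 0.0413) with no overlap, and risperidone rat 2 lay far below the rest. The call was lost without that rat (-0.29, adjusted p = 0.177) and without risperidone rat 3 or vehicle rat 1, 2, 4 or 5. It was also lost without the arrays high in markers of neighboring tissue (-0.32, adjusted p = 0.104).

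Several members had a second probe set, and in frontal cortex these were looked at after the main values were seen. The second probe set of Abcb1a, which encodes the drug pump P-glycoprotein, fell by 0.63 after risperidone (limma adjusted p = 0.00825), where the probe set that stood for the gene differed by -0.37 (adjusted p = 0.178). The second probe set of Slco1a4 fell by 0.51 (adjusted p = 0.0314), against -0.35 for the first, and that of Flt1, a decoy receptor for vascular endothelial growth factor, differed by -0.47 (adjusted p = 0.0595). The Abcb1a call held when any 1 rat was left out and without the arrays high in markers of neighboring tissue (-0.65, adjusted p = 0.0125). That of Slco1a4 was lost without those arrays (-0.43, adjusted p = 0.123) and without risperidone rat 2 (-0.42, adjusted p = 0.121) or vehicle rat 1, 2, 4 or 5, and that of Flt1 was gained without risperidone rat 1 (adjusted p = 0.0348). The second probe sets of Ocln, Tjp1 and Mcam differed by -0.08, 0.00 and 0.05. Kdr, Slc16a1, Podxl, Abcc9 and Pdgfrb also have further probe sets, and Flt1 has another, whose values are not given here. With the mean over the tested probe sets of each gene, 4 members were called in frontal cortex, Sox17, Sox18, Slco1a4 and Abcb1a.

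The 2 efflux pumps varied between rats in a way that was shared by all 3 regions of an animal. Taking each array's deviation from the mean of its region and treatment, the correlation of Abcg2 between pairs of regions over the 15 rats averaged 0.91 (0.85 to 0.96 over the 3 pairs of regions). The median over the 33 members was 0.39 and over all tested probe sets 0.24, and 108 of the 18609 probe sets were at or above Abcg2. The points compared share the rat, and the values are a description. Next came Abcb1a (0.72), Sox18 (0.65), Kdr (0.64) and Cldn5 (0.63), and the lowest were Ocln (0.03), Tjp1 (-0.05) and Notch3 (-0.16).

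Risperidone rat 1 measured 6.57, 6.35 and 6.25 for Abcg2 in frontal cortex, hippocampus and striatum, and haloperidol rat 1 measured 6.12, 5.93 and 6.01. The other 4 risperidone rats measured 7.31 to 7.62, 6.85 to 7.48 and 7.12 to 7.44, the other 4 haloperidol rats 7.01 to 7.50, 6.78 to 7.34 and 6.87 to 7.26, and the 5 vehicle rats 7.47 to 7.98, 7.02 to 7.81 and 6.97 to 7.34. Those 2 rats thus lay below all others in every region. Vehicle rats 1 and 5 were the highest of their group in every region, at 7.98 and 7.82 in frontal cortex.

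For Abcb1a the low rat was another. Risperidone rat 3 measured 6.77, 6.48 and 6.48 in frontal cortex, hippocampus and striatum, the lowest value of all 15 rats in each, where the other risperidone rats measured 7.21 to 7.80, 6.90 to 7.58 and 7.34 to 7.73 and the vehicle rats 7.53 to 7.82, 7.21 to 7.68 and 7.57 to 7.89. These rats were singled out after their values were seen.

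**Figure D3:**
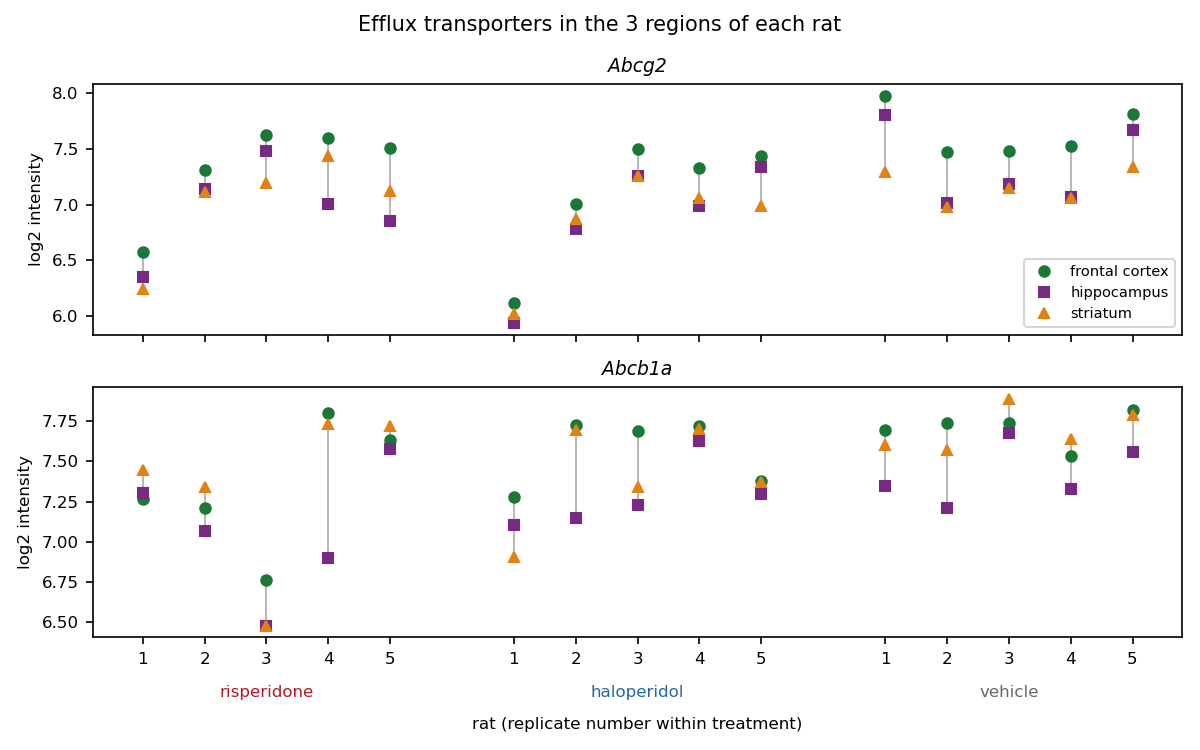
Log2 intensity of the efflux pump genes Abcg2 and Abcb1a in frontal cortex, hippocampus and striatum of each of the 15 rats, by treatment (each point 1 array; a thin line joins the 3 regions of a rat). Risperidone rat 1 and haloperidol rat 1 lie lowest for Abcg2 in all regions, and risperidone rat 3 for Abcb1a.

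The regions themselves differed in vessel genes. These comparisons used the 5 vehicle rats with all arrays set to the same median, because the deposited hippocampus arrays had a median 0.25 log2 units above frontal cortex. In hippocampus 18 of the 31 members were lower than in frontal cortex and 1, Ramp2, was higher, where 31.7% of all probe sets were called, 17.1% lower and 14.6% higher. The median difference was -0.31, against -0.01 over all probe sets. With the values as deposited 5 were lower and 5 higher, and those called under all 3 scalings tried were Pecam1, Tek, Sox17, Slco1a4 and Abcc9, which were lower, and Ramp2.

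On the equal-median scale Sox17 measured 6.15, 5.89, 6.10, 6.20 and 6.27 in hippocampus, against 6.79, 7.06, 6.68, 6.71 and 7.13 in frontal cortex of the vehicle rats (-0.75, SE 0.14, limma adjusted p = 2.45e-05). All hippocampus values lay below all frontal cortex values, as they did for 19.8% of all probe sets. Tek, the angiopoietin receptor, measured 7.42, 7.47, 7.37, 7.51 and 7.84 in hippocampus, against 8.02, 8.21, 8.02, 7.97 and 8.31 in frontal cortex (-0.59, SE 0.09, adjusted p = 9.44e-07), again with no overlap. Abcc9 differed by -0.66 (adjusted p = 6.95e-05) with overlap through vehicle rat 5, and Abcg2 differed by -0.57 (adjusted p = 0.0133), a call lost without vehicle rat 4 (adjusted p = 0.0507).

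Ramp2 went the other way. It measured 8.27, 8.54, 8.24, 8.30 and 8.38 in hippocampus, against 7.90, 8.10, 7.88, 7.88 and 8.06 in frontal cortex (0.38, SE 0.07, limma adjusted p = 1.22e-05), and 7.30, 7.36, 7.34, 7.31 and 7.51 in striatum. Neither pair of neighbors in the order hippocampus, frontal cortex, striatum overlapped, and the striatal level differed by -0.60 from that of frontal cortex (adjusted p = 5.35e-10) and by -0.98 from that of hippocampus (adjusted p = 5.13e-16). Hippocampus lay wholly above frontal cortex for 17.4% of all probe sets, and striatum wholly below frontal cortex for 27.4%.

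Between striatum and frontal cortex 6 members were higher in striatum and 5 lower, with a median difference of 0.00, where 19.1% of all probe sets were higher and 26.8% lower (45.9% called). As deposited, 4 were higher and 5 lower. Mcam measured 8.61, 8.62, 8.74, 8.58 and 8.62 in striatum, against 8.05, 8.15, 7.99, 8.04 and 7.44 in frontal cortex (0.70, SE 0.15, limma adjusted p = 7.69e-05), with vehicle rat 5 low in frontal cortex. The smooth muscle genes Tagln, which encodes the actin-binding protein transgelin, and Myl9 were higher by 0.42 (adjusted p = 0.00238) and 0.38 (adjusted p = 0.000755), and Emcn by 0.36 (adjusted p = 0.00415), all without overlap. Striatum lay wholly above frontal cortex for 19.1% of all probe sets.

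Lower in striatum than in frontal cortex, beside Ramp2 and Abcg2 (-0.48, adjusted p = 0.0275), were Slc7a5, the transporter of large neutral amino acids, at -0.33 (limma adjusted p = 8.11e-05), and Tie1, the receptor that partners Tek, at -0.31 (adjusted p = 0.00595). The Abcg2 call held without vehicle rat 3 (adjusted p = 0.0397) and was lost without vehicle rat 1, 2, 4 or 5, the difference being -0.43 (adjusted p = 0.0845) without vehicle rat 1.

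Between striatum and hippocampus 20 members were higher in striatum and 2 lower, where 20.0% of all probe sets were higher and 26.0% lower, 45.9% in all. The median difference was 0.33, against -0.03 over all probe sets, and as deposited 5 were higher and 4 lower. Sox17 measured 6.77, 7.06, 7.01, 6.65 and 7.19 in striatum, against the hippocampus values given above (0.82, SE 0.14, limma adjusted p = 3.74e-06). Abcc9 was higher by 0.79 (adjusted p = 2.17e-06) and Myl9 by 0.68 (adjusted p = 8.02e-08), both without overlap, while Ramp2 and Slc7a5 (-0.38, adjusted p = 1.1e-05) were lower. Striatum lay wholly above hippocampus for 21.1% of all probe sets.

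Ocln measured 8.12, 7.14, 7.20, 7.32 and 7.47 in striatum, against 6.79, 6.70, 6.57, 6.84 and 7.03 in hippocampus (0.66, SE 0.14, limma adjusted p = 0.000101). Vehicle rat 1, highest in striatum, is an array high in choroid plexus genes, an epithelium that also makes occludin. Without that rat the difference was 0.50 (adjusted p = 0.00342). Under all 3 scalings Ocln, Kdr, Sox17, Abcc9 and Myl9 were higher and Ramp2 and Slc7a5 lower in striatum than in hippocampus. Across scalings the sign differed for 8, 4 and 9 members in the comparisons of hippocampus with frontal cortex, striatum with frontal cortex and striatum with hippocampus.

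Other cell types differed between regions too. All 7 tested oligodendrocyte markers were higher in striatum than in frontal cortex and than in hippocampus, and all 7 tested markers of excitatory neurons were lower in striatum than in frontal cortex. Meningeal fibroblast markers had a median difference of -0.36 in hippocampus and -0.25 in striatum relative to frontal cortex, and choroid plexus markers of 0.85 in striatum relative to frontal cortex. Their part in the regional differences of vessel genes was not tested.

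**Figure D4:**
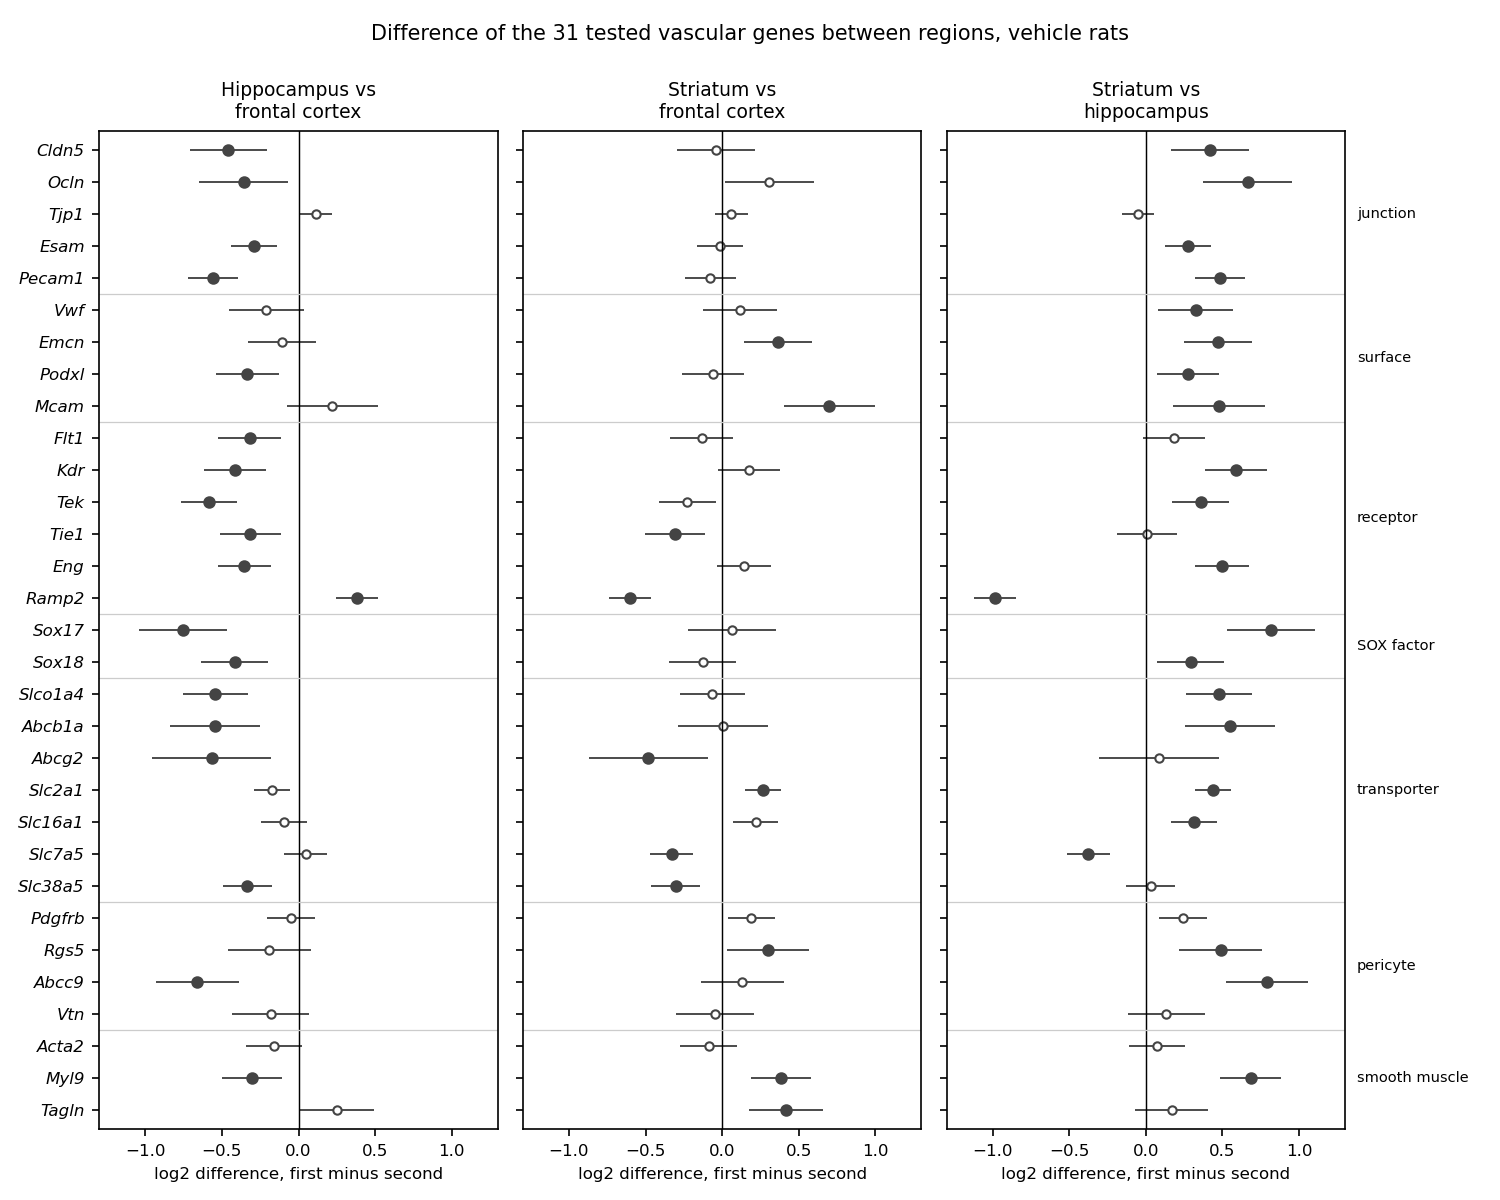
Log2 difference of each of the 31 tested vascular genes between regions in vehicle rats, with arrays set to the same median (points with 95% confidence intervals, 5 rats; filled points passed the call). Most genes lie left of 0 for hippocampus relative to frontal cortex and right of 0 for striatum relative to hippocampus, with Ramp2 opposite in both.

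Over the 45 arrays most members varied together. With each array taken as its deviation from the mean of its region and treatment, 464 of the 528 pairs of the 33 genes correlated positively, with a median r of 0.33. The points are arrays that share rats and dissections, and the correlations are given as a description. The strongest pair was Cldn5 with Rgs5, a junction gene of endothelium with a pericyte gene (0.87), and Cldn5 reached 0.91 with the mean of the other endothelial genes. By class, the median r was 0.39 between endothelial genes, 0.29 between endothelial and pericyte genes, and 0.20 between pericyte genes, which include the dim Anpep and Notch3.

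A few members stood outside this pattern. Abcg2 and Slc16a1 reached only 0.14 and 0.13 with the mean of the other endothelial genes, Slc38a5 0.19 and Notch3 -0.06. Slc16a1 and Mcam instead correlated with the mean of oligodendrocyte markers (0.71 and 0.76), and Ocln with that of choroid plexus markers (0.73). The standard deviation within groups was lowest for Tjp1, the scaffold protein ZO-1 (0.09), and highest for Abcg2 (0.43).

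**Figure D5:**
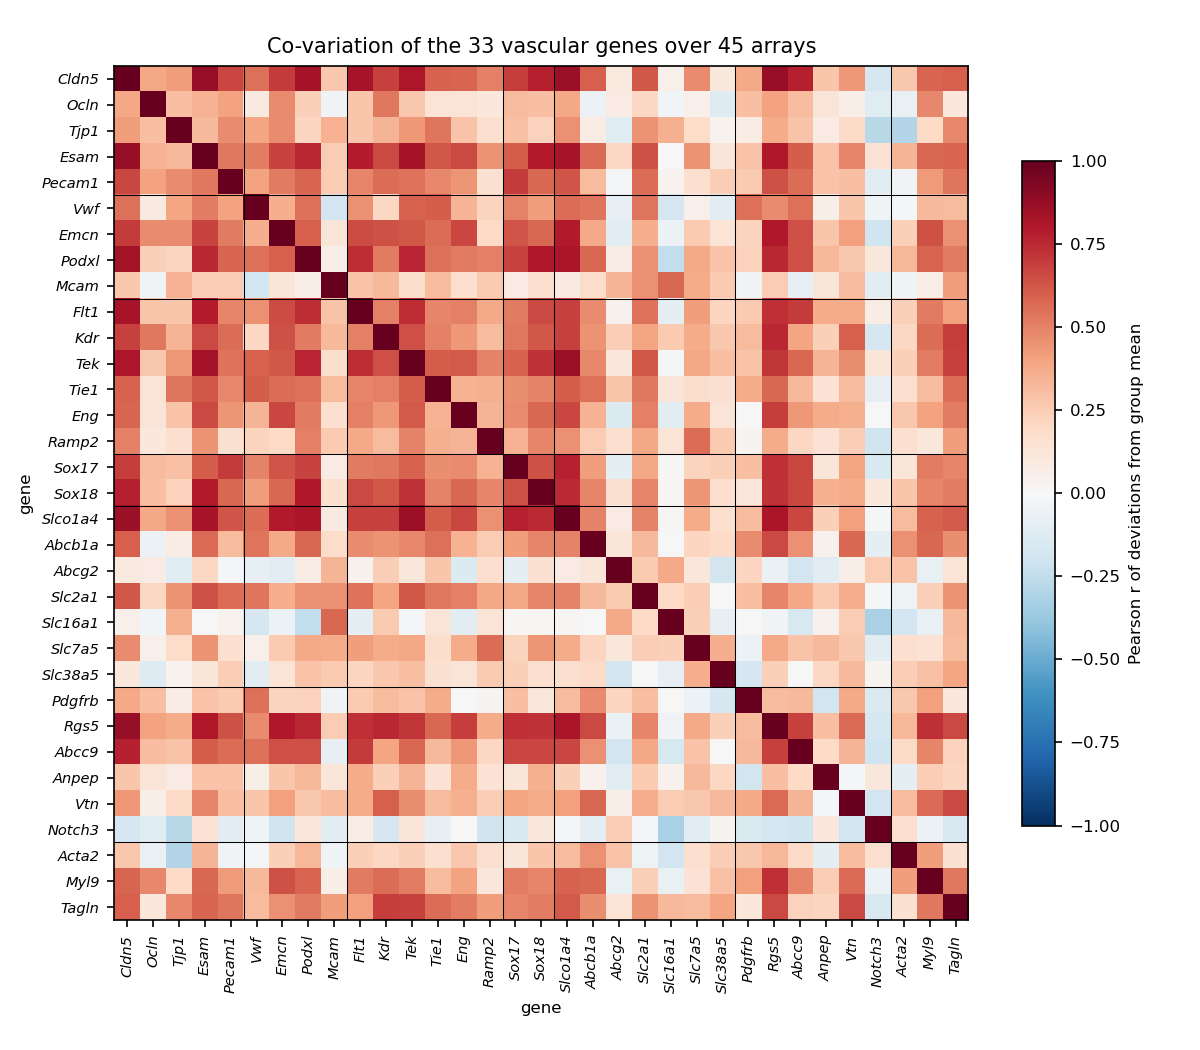
Pearson correlation between every pair of the 33 vascular genes over 45 arrays, each value taken as its deviation from the mean of its region and treatment, with genes ordered by role. Most pairs are positive, with Cldn5 and Rgs5 at 0.87, while Abcg2, Slc16a1 and Notch3 show weak correlations.

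Promoters are shown for 4 members that varied together most or led the drug results and that RefSeq's promoter table (build GRCr8) holds, from 250 bases before to 50 bases after the start of the gene. The table matched 23 of the 35 members. Cdh5, Esam, Pecam1, Vwf, Mcam, Tek, Ramp2, Sox17, Sox18, Pdgfrb, Myl9 and Tagln had no entry. Capitals mark, on either strand, the ETS motif GGAAG, the SOX motif ACAANG and the KLF motif CACCC, the short cores of the families of Ets1, of Sox17 and Sox18, and of Klf4. Emcn lies at chr2:228564289-228564588 (+ strand), Cldn5 at chr11:95718549-95718848 (- strand), Rgs5 at chr13:84380827-84381126 (+ strand) and Slco1a4 at chr4:176495797-176496096 (- strand).
Emcn: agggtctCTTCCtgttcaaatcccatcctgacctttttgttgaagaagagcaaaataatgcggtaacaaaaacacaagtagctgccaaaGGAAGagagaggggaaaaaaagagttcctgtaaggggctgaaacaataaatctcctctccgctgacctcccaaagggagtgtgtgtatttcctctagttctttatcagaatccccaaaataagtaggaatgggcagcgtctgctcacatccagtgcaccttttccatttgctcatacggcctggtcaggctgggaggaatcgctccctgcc
Cldn5: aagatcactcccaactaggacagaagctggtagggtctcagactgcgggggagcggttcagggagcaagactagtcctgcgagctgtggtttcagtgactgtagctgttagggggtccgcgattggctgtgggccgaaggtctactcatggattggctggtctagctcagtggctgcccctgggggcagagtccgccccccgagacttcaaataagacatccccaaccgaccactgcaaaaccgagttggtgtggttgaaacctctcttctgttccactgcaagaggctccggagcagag
Rgs5: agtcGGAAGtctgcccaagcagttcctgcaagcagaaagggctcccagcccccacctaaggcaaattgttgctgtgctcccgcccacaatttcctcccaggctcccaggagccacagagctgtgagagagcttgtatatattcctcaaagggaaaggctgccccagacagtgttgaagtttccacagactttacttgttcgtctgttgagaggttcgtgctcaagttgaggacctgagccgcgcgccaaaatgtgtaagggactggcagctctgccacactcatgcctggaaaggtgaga
Slco1a4: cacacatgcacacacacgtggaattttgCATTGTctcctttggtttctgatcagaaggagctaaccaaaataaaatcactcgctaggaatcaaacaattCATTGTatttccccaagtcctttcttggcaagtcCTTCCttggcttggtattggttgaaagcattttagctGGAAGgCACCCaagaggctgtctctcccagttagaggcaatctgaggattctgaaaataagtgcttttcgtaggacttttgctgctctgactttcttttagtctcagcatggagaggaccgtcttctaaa

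The Emcn window holds 2 ETS matches, that of Rgs5 holds 1, and that of Slco1a4 holds 2 ETS, 2 SOX and 1 KLF match, while that of Cldn5 holds none. Over the 23 member promoters the ETS motif occurred in 17, the SOX motif in 7 and the KLF motif in 16. Among all 33469 promoters of the same length 70.1%, 42.1% and 54.9% held them. A match describes the sequence only.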

How the data were processed

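RNA of 3 brain regions from 15 rats was hybridized to rat expression arrays. Per the submitters' processing notes, the authors made the deposited intensity values by RMA (robust multi-array averaging) in R 2.7.2. Whether regions were normalized together was not stated in the sources available. The deposited intensities were taken to log2, and 18609 probe sets above the 40th percentile of mean log2 intensity were kept, leaving out 57 control probe sets. A single model over all 45 arrays was fitted in limma 3.58.1 (R 4.3.3, data.table package 1.17.8), with rat as a random block (consensus correlation 0.226) and Benjamini-Hochberg adjustment within each of 18 comparisons. Scripts were tested on simulated data. Array numbers limit the precision. Rat numbers pair regions of a rat (median r of deviations 0.35 over 45 pairs), not treatments (median -0.02).

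Every tested member enters the counts and medians. Some, among them Podxl, Eng, Slc2a1, Esam, Vwf and Pdgfrb, are given no values of their own in the text. Full statistics are given for members called in a drug, drug against drug or between-region comparison of drug effects and for the 3 smallest p of each drug comparison with vehicle, and the 4 largest called region differences each way are named. Of the other vascular and cell type marker lists, genes called in a drug comparison are named. Members and lists were chosen with earlier results of these data known.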

Additional observations from a re-analysis of the deposited data

Results flagged for a closer look

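Among 162 groups of 5 arrays looked at, 14 held a value whose gap to the nearest of the others, relative to the whole range of the group, exceeded Dixon's limit. Chance alone marks about 1 in 20 groups. High values in haloperidol rats were Ocln in the striatum of rat 1 (7.88, others 6.93 to 7.17), an array high in choroid plexus genes, Tie1 in the hippocampus of rat 3 (6.34, others 5.94 to 6.05), and Sox18 and Slco1a4 in the frontal cortex of rat 3 (7.72, others 7.16 to 7.32, and 10.05, others 9.40 to 9.59). Low values in haloperidol rat 2 were Sox17 in hippocampus (5.92, others 6.19 to 6.30) and Abcc9 in striatum (6.18, others 6.46 to 6.55). In risperidone rats the single case was Abcg2 in the striatum of rat 1 (6.25, others 7.12 to 7.44).

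In vehicle rat 5, Sox18 in frontal cortex (7.77, others 7.32 to 7.43), Tek in hippocampus (8.03, others 7.55 to 7.68) and Ramp2 in striatum (7.43, others 7.21 to 7.26) were high and Mcam in frontal cortex was low (7.36, others 7.91 to 8.09). Slc16a1 was low in the frontal cortex of vehicle rat 3 (8.59, others 8.75 to 8.79) and in the hippocampus of vehicle rat 2 (8.73, others 8.91 to 8.97), and Slc38a5 was high in the hippocampus of vehicle rat 4 (6.31, others 5.93 to 6.03).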

How the results depend on the processing

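Without the settings that leave out a rat, 182 of 198 counts of called members stayed within 1.5 times the reported count, and of 1164 single-gene results 26 lost and 10 gained the call and none reversed. The causes of the differences were not tested. For risperidone in frontal cortex (2 called), 1 was called with no filter on dim probe sets, with rat left out of the model or on the region's own arrays, and 4 with gene means. A filter at the 60th percentile tests fewer members and gave 0. It left out Sox17 and Sox18, which lay at percentiles 47.6 and 59.4 of mean level, so it cannot speak to their calls. In striatum (1 called), 0 were called with no filter, quantile normalization, rat left out, own arrays, or without the arrays high in neighboring-tissue markers, a setting chosen after seeing the data that gave 1 call for the risperidone effect in hippocampus minus frontal cortex (0 before). For hippocampus against frontal cortex (19), striatum against frontal cortex (11) and striatum against hippocampus (22), the 60th percentile filter, with fewer members tested, gave 7, 6 and 13. The values as deposited gave 10 and 9 for the comparisons that involve hippocampus. With replicate number as a block the counts were 2, 0 and 1 for risperidone against vehicle and 19, 11 and 22 for regions, as without the block. Leaving out single rats gave 1 to 3 calls for risperidone in frontal cortex, 0 to 1 in hippocampus, 0 to 4 in striatum, and 0 to 1 for risperidone against haloperidol in frontal cortex. For the region comparisons the ranges were 17 to 19, 8 to 11 and 18 to 22. With 5 rats per group, differences in dim genes remain poorly resolved.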
